A study of Mus musculus with 18 samples.

Results

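10 genes that serve the maturation of peptide hormones and the granules that store them were followed across the 6 groups of this mouse RNA-Seq series. They were taken by name, as the rows of the counts table for Pcsk1, Pcsk2, Pcsk1n, Scg2, Scg3, Scg5, Cpe, Pam, Vgf and Scgn, which makes 10 of 55335 genes. The rule that picks them uses no measured value, although the set was proposed with earlier results of these data known. The libraries came from small intestinal crypts, the pockets of the gut wall that hold stem and progenitor cells, of mice 8 to 12 weeks old. KO mice carried 2 copies of Prmt1 flanked by LoxP sites together with a CreERT2 transgene under the villin promoter, which is active in the intestinal epithelium, so tamoxifen deletes Prmt1 in epithelial cells and leaves it in other cells of the tissue. WT mice were littermates with the same flanked Prmt1 copies but no Cre, matched for age and gender. Both genotypes received tamoxifen at 2 mg per injection, with 2 injections in the mice collected at day 2 and 5 in those collected at day 7 or 14. Each of the 6 genotype and day combinations had 3 libraries, each from its own mouse, and the mouse strain is not given in the sources used here.

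A peptide hormone is made as a longer precursor that is cut, trimmed and often amidated while it is packed into dense-core granules. The prohormone convertases PC1/3 (Pcsk1) and PC2 (Pcsk2) cut the precursor after pairs of basic residues, carboxypeptidase E (Cpe) removes the basic residues left at the cut end, and peptidylglycine alpha-amidating monooxygenase (Pam) turns a terminal glycine into an amide. ProSAAS (Pcsk1n) inhibits PC1/3, and 7B2 (Scg5) is the partner protein that PC2 needs to mature. The granins secretogranin II (Scg2), secretogranin III (Scg3) and VGF (Vgf) help to form the granule and are themselves precursors of peptides, and secretagogin (Scgn) is a calcium-binding protein of endocrine cells. In the gut these proteins are known from enteroendocrine cells (EECs), the scattered hormone-producing cells of the epithelium, where chromogranins A and B (Chga, Chgb) are common general markers.

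The promoters of 2 of these genes carried the same 8 bases, the palindrome TGACGTCA, known as the full cyclic AMP response element, and they are shown beside that of Scg5, the 1 gene of the set that was called lower in KO. RefSeq start sites gave a window for 8 of the 10 genes (assembly GRCm38.p6, 250 bases before to 50 after the start, 9 windows because Pam has 2). Cpe and Vgf had no window in that table. The 250 bases before the start are printed 5′ to 3′ on the gene's own strand for Pcsk1 (chr13:75089607-75089856, plus strand), Scg2 (chr1:79440027-79440276, minus strand) and Scg5 (chr2:113829092-113829341, minus strand). Capitals mark TGACGTCA in Pcsk1 and Scg2 and the shorter TGACG in Scg5.
Pcsk1: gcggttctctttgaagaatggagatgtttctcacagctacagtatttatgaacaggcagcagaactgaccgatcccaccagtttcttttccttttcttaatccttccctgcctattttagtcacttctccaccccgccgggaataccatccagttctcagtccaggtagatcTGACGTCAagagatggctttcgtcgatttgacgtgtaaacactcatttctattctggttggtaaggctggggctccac
Scg2: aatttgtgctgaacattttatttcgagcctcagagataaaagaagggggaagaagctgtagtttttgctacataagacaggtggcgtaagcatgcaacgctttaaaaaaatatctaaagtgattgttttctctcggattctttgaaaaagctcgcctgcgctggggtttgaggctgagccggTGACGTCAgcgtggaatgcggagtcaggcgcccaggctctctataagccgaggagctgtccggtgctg
Scg5: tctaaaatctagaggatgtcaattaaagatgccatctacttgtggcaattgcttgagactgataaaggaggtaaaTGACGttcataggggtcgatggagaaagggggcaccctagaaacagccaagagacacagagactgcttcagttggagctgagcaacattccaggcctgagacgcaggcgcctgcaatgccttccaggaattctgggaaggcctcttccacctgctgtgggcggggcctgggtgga
Between TGACGTCA and the RefSeq start lay 70 bases in Pcsk1 and 60 bases in Scg2, and the window of Chgb held the same 8 bases. Over all 32851 windows of that length, 1.79% held it on either strand. TGACG, which TGACGTCA contains, occurred in 5 of the 8 genes (Pcsk1, Pcsk2, Scg5, Scg2 and Scg3) and in 20.8% of all windows. The E-box CAGATG occurred in 0 of the 8 genes and in 17.2% of all windows, and TTCAGCACC, part of the element bound by the neuronal repressor REST, in Scg2 and in 0.371% of all windows. The counts table places the first base of Pcsk1, Scg2 and Chgb farther upstream than RefSeq does. By the table's annotation, the match lies within an exon in Scg2 and Chgb and before the first base in Pcsk1. A match of letters is a description of the sequence and not of a factor bound there.

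Sequencing depth and the targeted gene were checked first. Total counts per library ran from 12844642 to 31493484. Prmt1 lay between 13.1 and 17.4 CPM (reads of a gene relative to the library's total count, scaled with TMM factors) in the 9 KO libraries and between 20.2 and 30.6 CPM in the 9 WT libraries. It fell at day 2 (log2 fold change -0.89 ± 0.14, SE, adjusted p = 0.0264), day 7 (-0.59 ± 0.14, adjusted p = 0.00675) and day 14 (-0.72 ± 0.14, adjusted p = 0.00329) by edgeR's quasi-likelihood test. All adjusted p-values here are from that test, with Benjamini-Hochberg adjustment over the 21349 genes tested, a threshold of 0.05 and n = 3 against 3 unless stated. Markers of crypt epithelium summed to between 5540 and 10300 CPM per library. In whole crypts, fewer cells of a type and less RNA per cell cannot be told apart.

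Of the 10 genes, 9 passed the filter on low counts, and the remaining one, Pcsk2, had 0 to 6 counts per library. Set on a scale that allows genes to be compared, CPM per kilobase of the table's gene length, Cpe was the most abundant in the 9 WT libraries at 4.37 ± 0.873 (SD), followed by Pcsk1 at 3.85 ± 0.539, Scg2 at 2.61 ± 0.809, Pam at 1.97 ± 0.303 and Scgn at 1.53 ± 0.429. Scg5 (0.886 ± 0.211) and Scg3 (0.725 ± 0.134) were lower. Pcsk1n (0.173 ± 0.0868) and Vgf (0.0927 ± 0.0268) were lower again, and Pcsk2 stood at 0.0145 ± 0.0101. Each neighbouring pair in this order from Cpe to Scg3 overlapped in range, as did Pcsk1n and Vgf.

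**Figure D1:**
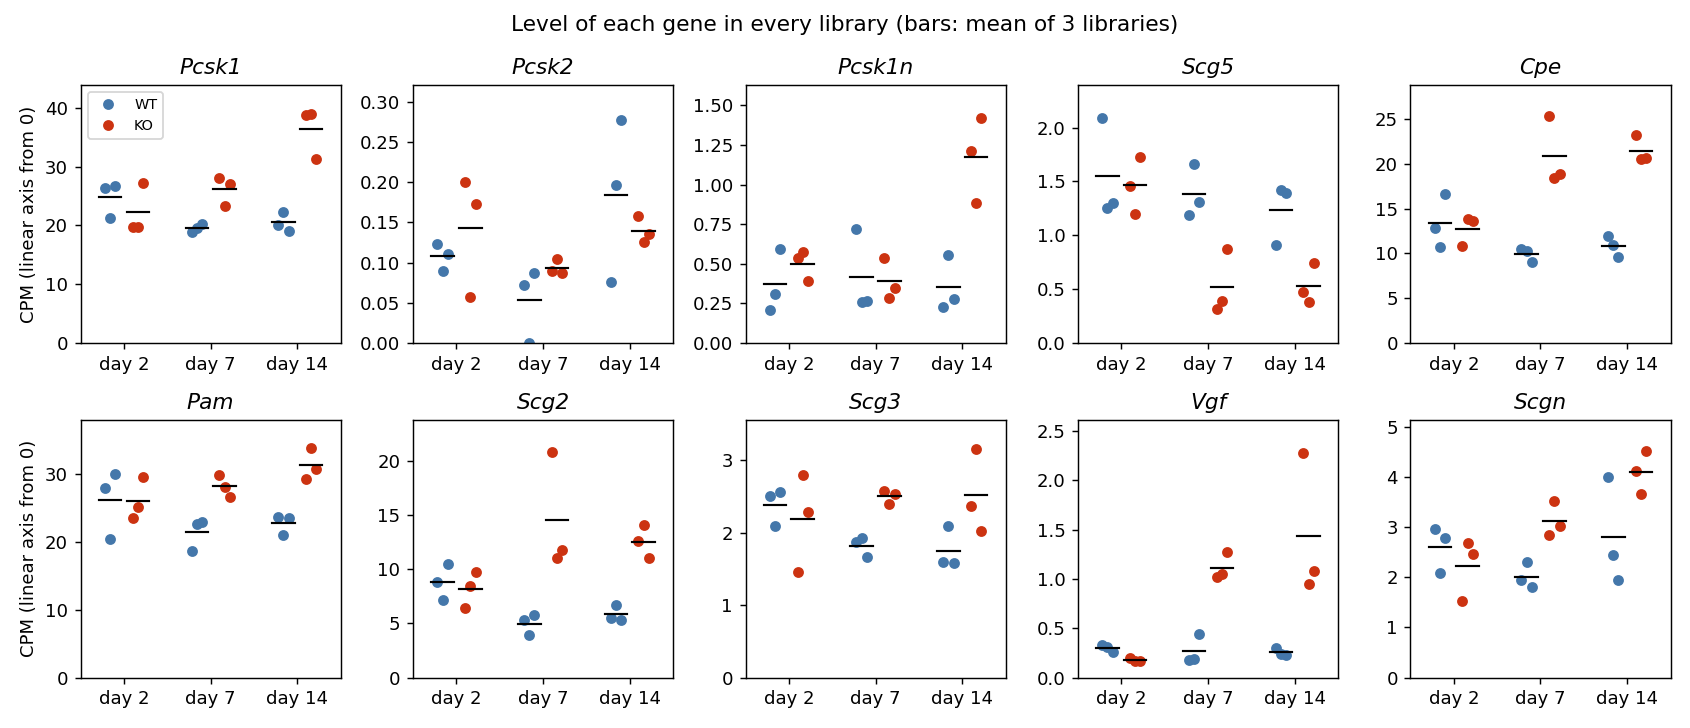
Level of each of the 10 genes in CPM (vertical axis, linear from 0) in every library at days 2, 7 and 14 (horizontal axis), with 1 point per library, WT in blue, KO in red, and a bar at the mean of 3. At day 14 the KO points of Pcsk1, Pcsk1n, Cpe, Pam, Scg2 and Vgf all lie above the WT points and those of Scg5 all lie below, whereas Pcsk2 stays under 0.3 CPM throughout.

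At day 2, none of the 9 genes was called between KO and WT (0 called by edgeR, 0 with an unadjusted p under 0.05 and 0 by DESeq2), where 0.0328% of all tested genes were called. Their fitted log2 fold changes ran from -0.71 (Vgf) to 0.38 (Pcsk1n). Vgf was the one gene whose KO libraries all lay below the WT libraries, an arrangement that 3.86% of all tested genes had, but it rested on 3 or 4 counts per KO library and 7 or 8 per WT library. Pcsk1 measured 26.4, 21.2 and 26.7 CPM in WT and 19.8, 19.7 and 27.2 CPM in KO. Cpe measured 12.8, 10.7 and 16.7 CPM in WT and 10.8, 13.9 and 13.6 CPM in KO, and Scg2 measured 8.82, 7.16 and 10.5 CPM in WT and 6.46, 8.44 and 9.71 CPM in KO. In all 3 of these genes the KO and WT libraries overlapped. Pcsk1n measured 0.205, 0.311 and 0.594 CPM in WT and 0.533, 0.571 and 0.388 CPM in KO, again with overlap.

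At day 7, 4 of the 9 genes were higher in KO (Pcsk1, Cpe, Scg2 and Vgf) and 1 was lower (Scg5). Over all tested genes, 17.3% were called, 7.11% higher and 10.2% lower. At day 14, 5 of the 9 were higher (Pcsk1, Pcsk1n, Cpe, Scg2 and Vgf) and 0 lower, against 7.92% of all tested genes called, 3.23% higher and 4.69% lower. The median log2 fold change of the 9 was 0.46 at day 7 and 0.83 at day 14, and that of all tested genes was 0.02 at day 7 and 0 at day 14. All 3 KO libraries lay above all 3 WT libraries for 7 genes at day 7 (15.9% of all tested genes) and for 6 at day 14 (12.4%), and below them for Scg5 on both days (17.7% and 14.1%).

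Pcsk1, the convertase PC1/3 (chr13:75089826-75134861, mm10), rose at both later days. WT libraries held 18.8, 19.5 and 20.2 CPM at day 7 and KO libraries 28.1, 23.3 and 27 CPM. At day 14 they held 20.1, 22.3 and 19.1 CPM in WT and 38.8, 38.9 and 31.3 CPM in KO. The genotypes did not overlap on either day, and the KO libraries of day 14 lay above those of every other group. The log2 fold change was 0.42 ± 0.14 (SE, adjusted p = 0.0459) at day 7 and 0.83 ± 0.14 (adjusted p = 0.00106) at day 14. The day 7 call held in 4 of 13 alternative analyses and was lost when any library of that day other than KO replicate 2 was left out (adjusted p up to 0.137), whereas the day 14 call held in 13 of 13.

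Pcsk2, the convertase PC2 (chr2:143546156-143816285), was barely present. Its counts were 2, 0 and 2 in WT and 2, 3 and 2 in KO at day 7, and 1, 5 and 6 in WT and 3, 2 and 2 in KO at day 14. The groups overlapped, and at up to 6 counts a difference was not detectable at this depth. Short antisense genes (Pcsk2os1, Pcsk2os2) share exon sequence with Pcsk2 and strand was not used in counting, so even these counts are uncertain in origin.

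Pcsk1n, which encodes the PC1/3 inhibitor proSAAS (chrX:7919822-7924410), rose at day 14. At day 7 it measured 0.72, 0.256 and 0.263 CPM in WT and 0.534, 0.281 and 0.349 CPM in KO. At day 14 it measured 0.227, 0.553 and 0.278 CPM in WT and 1.21, 0.883 and 1.42 CPM in KO. The genotypes overlapped at day 7 and were apart at day 14, where the KO libraries lay above those of every other group. The log2 fold change was -0.18 ± 0.49 (adjusted p = 0.854) at day 7 and 1.64 ± 0.47 (adjusted p = 0.0363) at day 14. These values rest on 3 to 23 counts per library, and 6.16% of the gene's exon bases overlap Eras on the other strand. The day 14 call held in 8 of 13 alternative analyses and was lost without KO day 14 replicate 1 or 3 or WT day 14 replicate 1 or 3 (adjusted p up to 0.119). It was also lost with the replicate number as a block (adjusted p = 0.0571), and the sign at day 7 turned without WT day 7 replicate 1 (0.55) or KO day 7 replicate 2 (0.02).

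Scg5, the PC2 partner 7B2 (chr2:113776362-113829121), was the gene that fell. Its WT libraries held 1.19, 1.66 and 1.31 CPM at day 7 and its KO libraries 0.311, 0.386 and 0.873 CPM. At day 14 the values were 0.907, 1.42 and 1.39 CPM in WT and 0.474, 0.378 and 0.742 CPM in KO. On each of these days the highest KO library was under the lowest WT library, while KO libraries of day 2 (1.46, 1.2 and 1.73 CPM) were within the range of the 9 WT libraries. On the log2 scale the change was -1.39 ± 0.37 (adjusted p = 0.013) at day 7 and -1.25 ± 0.39 (adjusted p = 0.0566) at day 14, so that day 7 passed and day 14 did not. KO libraries of days 7 and 14 had 6 to 20 counts, and the day 7 call was lost without KO day 7 replicate 1 (adjusted p = 0.0824) or replicate 2.

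Cpe, which trims the cut precursor (chr8:64592542-64693054), was higher in KO at both later days. It measured 10.5, 10.3 and 9.02 CPM in WT and 25.4, 18.4 and 18.9 CPM in KO at day 7. At day 14 it measured 12, 10.9 and 9.64 CPM in WT and 23.2, 20.6 and 20.7 CPM in KO. No KO library of these days overlapped a WT library of any day. The fold was 2.10 at day 7 (log2 1.07 ± 0.17, adjusted p = 0.000242) and 1.98 at day 14 (log2 0.99 ± 0.17, adjusted p = 0.00104), and both calls held in 13 of 13 alternative analyses.

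Pam, the amidating enzyme (chr1:97795114-98095646), was separated between genotypes without passing the test. WT libraries held 18.6, 22.7 and 23 CPM at day 7 and KO libraries 29.9, 28.1 and 26.6 CPM, followed at day 14 by 23.7, 21 and 23.6 CPM in WT and 29.3, 33.8 and 30.7 CPM in KO. Every KO library lay above every WT library of its day, but WT libraries of day 2 (28, 20.5 and 30 CPM) reached into the KO range. Its log2 fold change was 0.40 ± 0.14 (adjusted p = 0.0576) at day 7 and 0.46 ± 0.14 (adjusted p = 0.0516) at day 14, each just short of the threshold and each past it in 3 of 13 alternative analyses. A gene on the same strand, B230216N24Rik, covers 1.58% of its exon bases.

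Among the granins, Scg2 (chr1:79434669-79440120) rose on both days. It measured 5.29, 3.90 and 5.78 CPM in WT and 20.8, 11 and 11.8 CPM in KO at day 7. At day 14 it measured 5.51, 6.75 and 5.28 CPM in WT and 12.6, 14.1 and 11 CPM in KO. The genotypes were apart on both days, and 1 KO library of day 7 stood well above the others. The fold was 2.88 (log2 1.53 ± 0.24, adjusted p = 0.000198) at day 7 and 2.14 (log2 1.1 ± 0.24, adjusted p = 0.00615) at day 14. Scg2 was still called at day 7, with a log2 fold change of 1.2, when that library (KO replicate 1) was left out.

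Vgf (chr5:137026392-137033351) had the largest fold of the 9 genes from one of the lowest levels. WT libraries held 0.18, 0.192 and 0.438 CPM at day 7 and KO libraries 1.02, 1.05 and 1.27 CPM. At day 14 the values were 0.302, 0.237 and 0.232 CPM in WT and 2.27, 0.946 and 1.08 CPM in KO. All KO libraries of these days lay above every library of the other 4 groups. In counts this was 15 to 43 per KO library against 3 to 10 per WT library. The fold was 4.03 at day 7 (log2 2.01 ± 0.40, adjusted p = 0.00184) and 5.66 at day 14 (log2 2.5 ± 0.42, adjusted p = 0.000762), with both calls held in 13 of 13 alternative analyses.

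Scg3 (chr9:75643189-75684056) did not pass. Its WT libraries held 1.87, 1.92 and 1.66 CPM at day 7 and its KO libraries 2.58, 2.39 and 2.53 CPM, and at day 14 the values were 1.59, 2.09 and 1.58 CPM in WT and 2.37, 3.15 and 2.02 CPM in KO. The genotypes were apart at day 7 and overlapped at day 14. Its log2 fold change was 0.46 ± 0.24 (adjusted p = 0.212) at day 7 and 0.51 ± 0.25 (adjusted p = 0.243) at day 14.

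Scgn, the calcium sensor (chr13:23953456-23991214), did not pass on either day. It measured 1.94, 2.30 and 1.80 CPM in WT and 2.85, 3.51 and 3.01 CPM in KO at day 7, and 4, 2.45 and 1.95 CPM in WT and 4.11, 3.66 and 4.52 CPM in KO at day 14. The genotypes were apart at day 7, and at day 14 the WT library with 4 CPM reached the KO range. The log2 fold change was 0.64 ± 0.26 (adjusted p = 0.0997) at day 7 and 0.58 ± 0.26 (adjusted p = 0.198) at day 14. With that WT library (replicate 1) left out, Scgn was called at day 14 (adjusted p = 0.0465), the 1 of 13 alternatives that did so.

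Ordered by mean level over the 6 groups, Cpe ran from WT day 7 (9.94 CPM) over WT day 14 (10.9), KO day 2 (12.8) and WT day 2 (13.4) to KO day 7 (20.9) and KO day 14 (21.5), and Scg2 had the same 4 groups at the bottom, from 4.99 to 8.83 CPM. For both genes the lower 4 groups overlapped stepwise, the step to the upper groups was clear of overlap, and KO days 7 and 14 overlapped with each other. Pcsk1 overlapped at every step from WT day 7 (19.5 CPM) to KO day 7 (26.1 CPM), and KO day 14 (36.3 CPM) stood apart. Scg5 was lowest in KO days 7 (0.524 CPM) and 14 (0.532 CPM), which overlapped with each other and were apart from the remaining 4 groups, at 1.24 to 1.55 CPM. For Pam and Scg3 every neighbouring pair of groups overlapped.

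**Figure D2:**
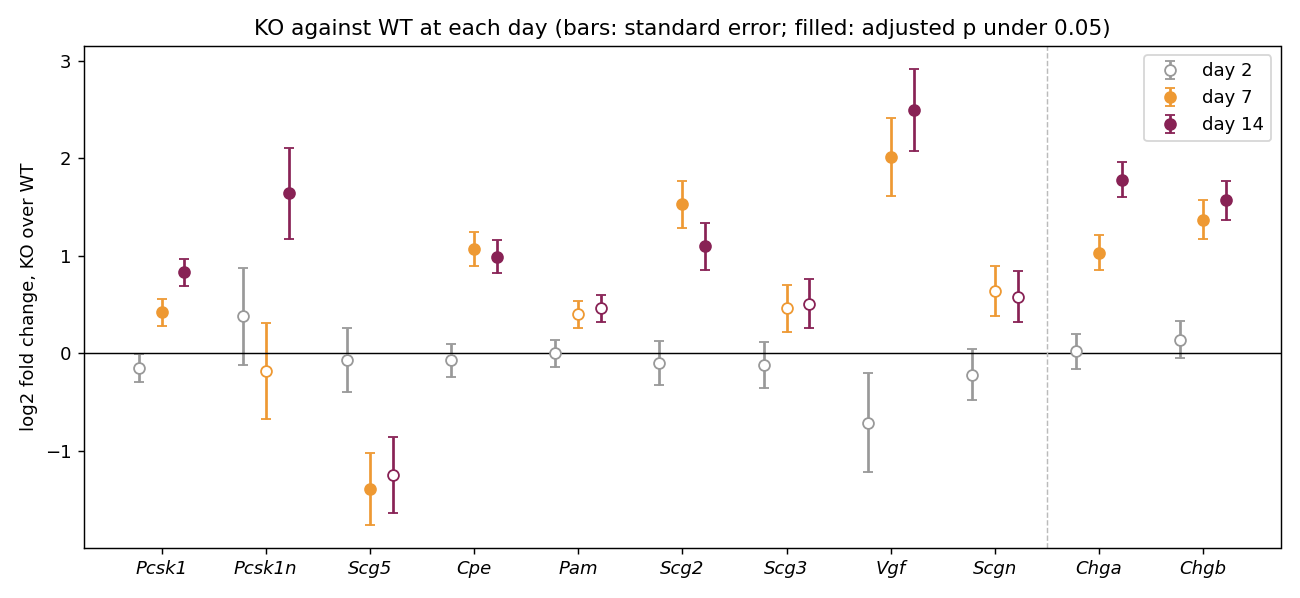
Log2 fold change of KO over WT (vertical axis) for the 9 tested genes and, right of the dashed line, Chga and Chgb, at days 2 (grey), 7 (orange) and 14 (purple), with bars of 1 standard error and filled points where the adjusted p is under 0.05. Vgf reaches 2.5 at day 14, Scg5 lies at -1.39 and -1.25, and all points of day 2 are unfilled.

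Differences between days were tested directly. The KO effect was larger at day 7 than at day 2 for Cpe (by 1.14 ± 0.24 on the log2 scale, adjusted p = 0.00986), Scg2 (1.63 ± 0.33, adjusted p = 0.00782) and Vgf (2.72 ± 0.65, adjusted p = 0.0225), which makes 3 of 9 genes beside 4.37% of all tested genes. Of these, the Vgf call was lost without KO day 2 replicate 3, WT day 2 replicate 1 or WT day 7 replicate 1 (adjusted p up to 0.0609). From day 2 to day 14 it grew for Pcsk1 (0.98 ± 0.20, adjusted p = 0.018), Cpe (1.05 ± 0.24, adjusted p = 0.0346) and Vgf (3.21 ± 0.66, adjusted p = 0.018), again 3 of 9, beside 1.04%. Between days 7 and 14 no gene of the 9 was called (0 by edgeR, 0 by DESeq2, 1 with an unadjusted p under 0.05, which was Pcsk1n), and 0% of all tested genes were. The KO effect on Pcsk1n was therefore not shown to differ between days 7 and 14 (difference 1.82 ± 0.68, adjusted p = 0.999). These comparisons share libraries. Without WT day 2 replicate 1 or KO day 14 replicate 1, 0 of the 9 genes were called between days 14 and 2, and with the replicate number as a block the Cpe call of that comparison was lost (adjusted p = 0.0522). Over all 12 runs with 1 library left out, the calls of that comparison held in 4 for Cpe, 8 for Pcsk1 and 9 for Vgf.

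WT crypts were compared between days in the same way. None of the 9 was called between days 7 and 2 (0.553% of all tested genes), between days 14 and 2 (1.61%) or between days 14 and 7 (0.0796%) by edgeR. Unadjusted p-values under 0.05 numbered 3 (Pcsk1, Cpe and Scg2), 1 (Scg2) and 0. The lowest value was that of Scg2 at day 7, with a log2 fold change of -0.81 against day 2 (adjusted p = 0.0766), and DESeq2 called Scg2 there (adjusted p = 0.025) and 0 genes in the other 2 comparisons.

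Chga and Chgb, the granule proteins used as a yardstick, rose in the same libraries. Chga went from 69.5 ± 2.97 CPM (SD) in WT to 141 ± 6.01 CPM in KO at day 7, and from 63.5 ± 9.04 to 218 ± 29.7 CPM at day 14. Chgb went from 150 ± 9.85 to 388 ± 35.4 CPM and from 145 ± 20 to 431 ± 40 CPM. The log2 fold change of Chga was 1.03 ± 0.18 at day 7 and 1.78 ± 0.18 at day 14, and that of Chgb 1.37 ± 0.20 and 1.57 ± 0.20.

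Counted against Chga in the same library, most of the genes were lower in KO. WT libraries of day 14 held 32.6 ± 3.69 counts of Pcsk1 and 36.6 ± 7.34 of Pam per 100 counts of Chga, and KO libraries held 16.7 ± 1.13 and 14.5 ± 1.57. Scg5 went from 1.94 ± 0.269 to 0.255 ± 0.124 per 100. At day 7 the KO libraries lay below all WT libraries in this ratio for 6 of 9 genes and at day 14 for 7 of 9, while 80% and 91.7% of all genes with counts in every library did so. Counts out of 9 genes are too small to set apart from those shares. The median difference in log2 ratio was -0.56 at day 7 and -0.96 at day 14 for the 9 genes, and -1.01 and -1.77 over all genes. At day 7 the log2 ratio to Chga was higher in KO by 1.14 for Vgf, with KO libraries above WT libraries, and by 0.47 for Scg2 and 0.03 for Cpe, with overlap. With Chgb as the divisor the median differences were -0.90 and -0.76, the sign of Cpe at day 7 turned from 0.03 to -0.31, and Vgf at day 7 was higher by 0.8 with KO and WT libraries overlapping.

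**Figure D3:**
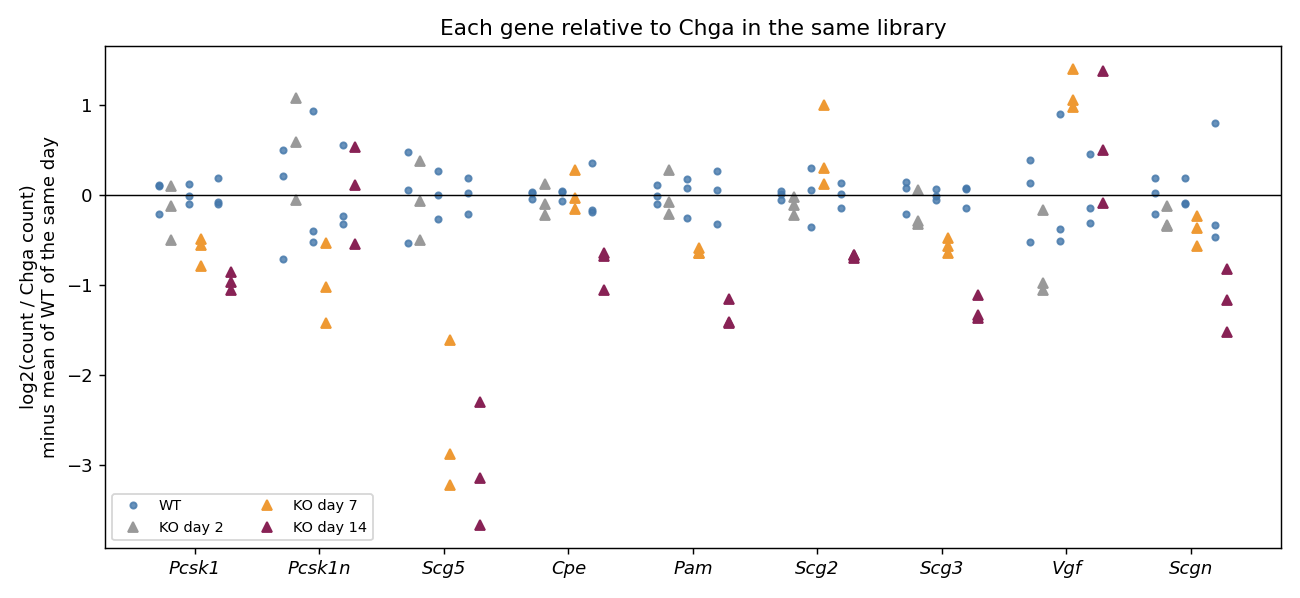
Log2 of each gene's count over the Chga count of the same library, minus the WT mean of that day (vertical axis), for 9 genes with the 3 days side by side, WT libraries as dots and KO libraries as triangles. KO triangles of day 14 lie below the WT dots for Pcsk1, Scg5, Cpe, Pam, Scg2, Scg3 and Scgn, with Scg5 lowest, and Vgf at day 7 lies above.

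The patterns of the genes across the 18 libraries were compared with each other and with all other tested genes. Over the 36 pairs of tested genes the median Pearson's r of log2 CPM was 0.59, with 28 pairs positive and the other 8 all pairs of Scg5. After the group means were taken out the median r was 0.11, and negative pairs then included some without Scg5, such as Pcsk1n with Pam (-0.32). These correlations are descriptions over 18 libraries that share group, depth and preparation. Cpe followed Chgb most closely (r = 0.953), then Kdm5b (0.925) and the hormone Pyy (0.923). Scg2 was nearest to the hormones Cck (0.931) and Sct (0.917) and to G0s2 (0.914). Pcsk1 was nearest to Trpm2 (0.912), Chga (0.895) and the EEC transcription factor Neurod1 (0.886).

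The other genes had nearest neighbours of other kinds. Scg5 was closest to Fbp1 (0.925), Cdca7 (0.907) and Taco1 (0.906). Pam was closest to Ctsl (0.898), Prnp (0.889) and Vim (0.863), and Vgf to Mroh2a (0.936), Erc2 (0.928) and Rnf169 (0.923). Scgn was nearest to Pwwp3b (0.897), Timp4 (0.847) and Pclo (0.828), Scg3 to Larp1b (0.836), Flywch1 (0.835) and Cnst (0.828), and Pcsk1n, at few counts, to Hist1h1t (0.862), Disp2 (0.753) and Zbtb9 (0.744).

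The substrates and regulators around these enzymes were taken from fixed lists, whose counts stand beside 7.11% of all tested genes higher and 10.2% lower at day 7, and 3.23% higher and 4.69% lower at day 14. Of 24 peptide precursors, 12 were tested and 8 were higher and 1 lower at day 7, with 7 higher and 1 lower at day 14 (median log2 fold change 0.97 and 1.01). The hormone Pyy rose most at day 14 (1.98 ± 0.40, adjusted p = 0.00383), followed by urocortin 3 (Ucn3, 1.53 ± 0.29, adjusted p = 0.00222), and Gcg, the precursor of the glucagon-like peptides, rose by 0.98 ± 0.20 (adjusted p = 0.00422). Ghrl, the precursor of ghrelin, fell (-0.90 ± 0.17, adjusted p = 0.00246). Of 13 EEC transcription factors, 6 were higher at day 7 and 10 at day 14, with 0 lower (median 0.76 and 1.25), Fev (1.91 ± 0.31) and Pax4 (1.85 ± 0.27) by most and Rfx6 (0.92 ± 0.20) and Hmgn3 (1.15 ± 0.31) by least among those called at day 14.

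Among 17 genes of chromogranins and granule biogenesis, 4 were higher and 1 lower at day 7, and 6 higher and 1 lower at day 14 (median 0.22 and 0.23). Over all tested genes, 7.11% were higher and 10.2% lower at day 7, and 3.23% higher and 4.69% lower at day 14. Ptprn, a granule membrane protein, rose most at day 14 (2.37 ± 0.26, adjusted p = 1.46e-05), and Slc18a2, the vesicular monoamine transporter, rose least of those called (0.66 ± 0.18, adjusted p = 0.0268). Cadps2, an activator of granule exocytosis, fell (-1.15 ± 0.15, adjusted p = 6.53e-05) from 43.2 to 19.4 CPM.

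Close relatives of the processing enzymes were read against the shares of all tested genes called, 17.3% at day 7 and 7.92% at day 14. Of 7 other convertases, furin among them, 0 were called on either day (median 0.03 and 0.06), a count too small to set apart from those shares. Of 5 tested carboxypeptidases of the Cpe family, Cpd, the enzyme of the trans-Golgi network, fell on both days (-0.66 ± 0.14, adjusted p = 0.00269 at day 7 and -0.47 ± 0.14, adjusted p = 0.0432 at day 14) and 0 rose. Of 5 genes of other monooxygenases and cofactor supply, 2 (Moxd1 and Moxd2) were higher at day 7 and 1 at day 14, the latter Moxd2, at a mean of 1.38 CPM in KO and 0.0263 CPM in WT (adjusted p = 0.000193). Of 7 other maturation enzymes, 0 were called at day 7 and 1 at day 14, which was the protease Ctsl (0.68 ± 0.20, adjusted p = 0.0455). Of 6 factors of the secretory stress response, 1 was higher (Creb3l1) and 2 were lower (Bhlha15 and Crebrf) at day 7 and 0 were called at day 14. Those named for day 7 alone were chosen after their values were seen. At day 2, 0 genes of these 8 lists were called. Median log2 fold changes of all tested genes were 0.02 at day 7 and 0 at day 14.

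**Figure D4:**
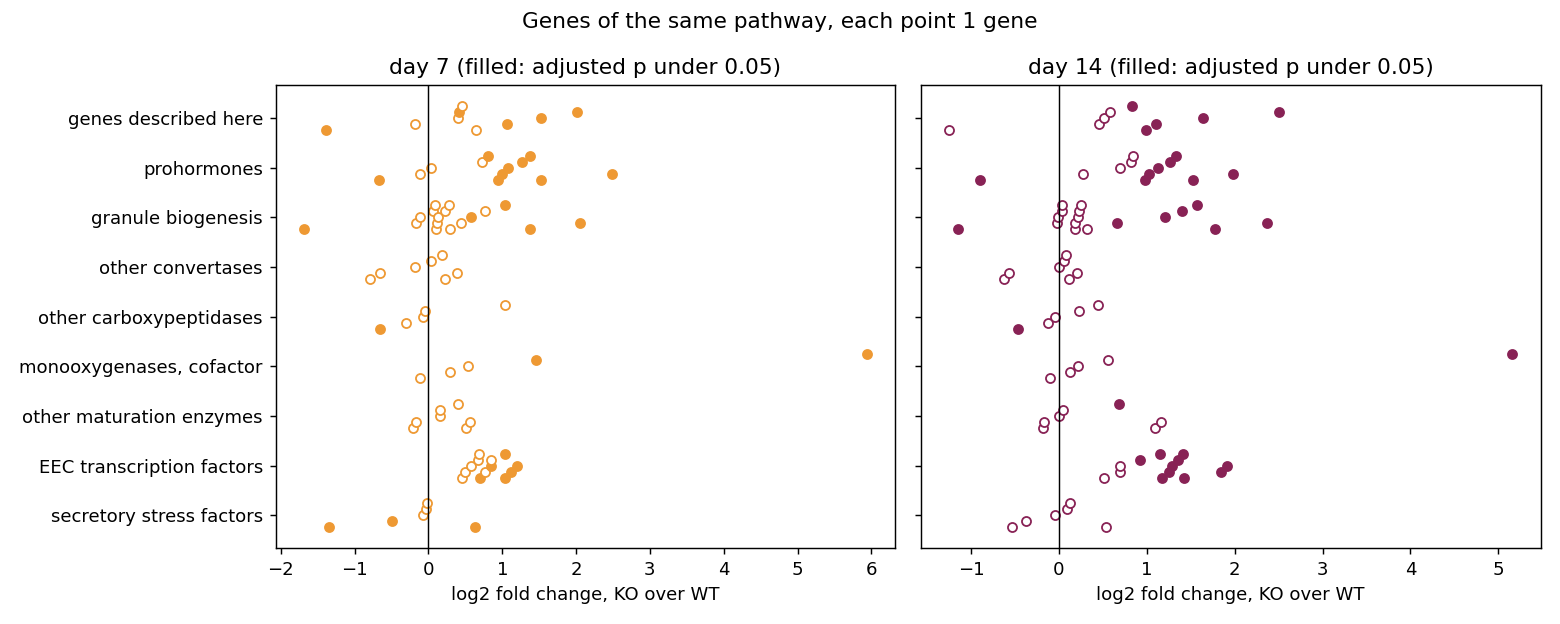
Log2 fold change of KO over WT (horizontal axis) for the tested genes described here and those of 8 lists around them (rows), at day 7 (left) and day 14 (right), each point 1 gene and filled where the adjusted p is under 0.05. The point far to the right is Moxd2, nearly without counts in WT, and the other convertases hold no filled point.

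Markers of other cells moved in some of the same libraries, and their part in the results was not tested. Their counts stand beside 7.11% of all tested genes higher and 10.2% lower at day 7, and 3.23% higher and 4.69% lower at day 14. The 15 enteric neuron markers summed to 5.88 to 11.2 CPM in WT and day 2 KO libraries and to 13.4 to 17 CPM in KO libraries of days 7 and 14, with 3 of 7 tested higher at day 7 (Ret, Snap25 and Nefm) and 2 at day 14 (Ret and Snap25). Ret (mean 4.96 CPM) and Snap25 (1.79 CPM) made up most of this sum, and the neuron marker Hand2 had at most 5 counts per library and Prph at most 10. Among 7 glia markers Fabp7 had at most 1 count and Sox10 at most 14, the sum being mostly Erbb3 (mean 504 CPM) at 367 to 403 CPM in KO libraries of day 7 and 412 to 788 CPM in WT libraries, and among 10 pancreas markers Ins1 had 0 counts and the sum was at most 12.2 CPM.

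Against the same shares of all tested genes, which a count of 1 gene in a list does not set apart, the other lists held the following calls. Paneth cell markers were lower in KO for 6 of 6 tested genes at day 7 and 1 at day 14 (Ang4), with sums of 1400 to 3960 CPM in KO and 8950 to 14900 CPM in WT at day 7. Goblet cell markers were lower for 2 of 7 at day 7 (Clca1 and Fcgbp) and 1 at day 14 (Clca1), and tuft cell markers for 1 of 6 (Dclk1) and 0. Enterocyte markers were higher for 2 of 8 (Fabp1 and Fabp2) and lower for 1 (Lct) at day 7, and higher for 1 at day 14 (Sis), with sums of 12400 to 19900 CPM in KO and 7660 to 10800 CPM in WT at day 7. Stromal markers (1 of 12 higher at day 7, Vim), endothelial markers (1 of 4 higher, Pecam1), immune markers (1 of 11 lower, Kit) and crypt epithelium markers (2 of 9 lower, Lgr5 and Olfm4) had 0 called at day 14. Of 4 tested glia markers, 2 were higher (S100b and Gfra3) and 1 lower at day 7, and 1 was higher (Gfra3) and 1 lower at day 14. Pancreas markers had 0 of 4 called on either day. The marker genes in parentheses were named after their values were seen.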

How the data were processed

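RNA was taken from isolated crypts, depleted of ribosomal RNA and sequenced as pairs of 100-base reads. The deposited table holds raw read counts per gene, which the authors obtained by aligning to mm10 with STAR 2.7.3 and counting exons with featureCounts 1.6.4. Its deposited gene length column, in bases, gave the values per kilobase. The header of the table names GENCODE release M23 and the methods name M26. Per the header, a read that overlapped more than 1 gene was assigned to all of them, without regard to strand. The submitters' processing notes also name HTSeq. There were 0 columns of other samples.

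Groups and replicate numbers came from the sample labels. The 20 genes that the study removed as differing between the sexes were left out, and rows were kept with filterByExpr. The study used mice of both sexes, but the labels do not give the sex of each mouse, so sex was not in the model. Counts were scaled with TMM (factors 0.857 to 1.13) and tested with the quasi-likelihood test of edgeR 4.0.16 (limma 3.58.1, R 4.3.3) in a single model of the 6 groups over 18 libraries, with Benjamini-Hochberg adjustment over all tested genes and a threshold of 0.05. CPM values use the TMM factors, and correlations use log2 CPM with a prior count of 2. The scripts were tested on simulated data. Same-numbered KO and WT libraries, for which the labels state no shared origin, deviated together at day 14 (correlations 0.23, 0.18 and 0.16) and not in every pair at days 2 and 7. Alternatives were DESeq2 1.42.0, its size factors in edgeR, the 20 largest genes left out before TMM, no filter on low counts, the sex-differing genes kept, the replicate number as a block, only the compared groups in the model, each library left out in turn, and Chgb in place of Chga. Promoter windows were searched on both strands with Python 3.11.15, and plots were drawn with matplotlib 3.10.9. Protein sequences were not used here.

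The 10 genes and all lists were chosen with earlier results of these data known. Genes were named by rule: the 10 genes, Prmt1, Chga and Chgb, from each list the 2 highest and 2 lowest log2 fold changes among those called at day 14, and for each tested gene the 3 others with the highest Pearson's r, without unnamed predicted genes. Other cell types were described by counts and summed levels, with the defining or most abundant markers named. Some marker genes of other cell types are not reported here.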

Additional observations from a re-analysis of the deposited data

Results flagged for a closer look

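The effect of Prmt1 loss differed between days by the interaction test of edgeR (Benjamini-Hochberg adjustment over all tested genes) for 4 of the 9 tested genes, 3 at day 7 against day 2 beside 4.37% of all tested genes and 3 at day 14 against day 2 beside 1.04%. The day 14 calls numbered 0 without WT day 2 replicate 1 or KO day 14 replicate 1. For Cpe, the KO against WT difference was larger than at day 2 by 1.14 ± 0.24 (log2, SE, adjusted p = 0.00986) at day 7 and by 1.05 ± 0.24 (adjusted p = 0.0346) at day 14, the latter lost with the replicate number as a block (adjusted p = 0.0522). For Vgf it was larger by 2.72 ± 0.65 (adjusted p = 0.0225) and 3.21 ± 0.66 (adjusted p = 0.018), on 3 or 4 counts per KO library at day 2. The day 7 call of Vgf was lost without KO day 2 replicate 3, WT day 2 replicate 1 or WT day 7 replicate 1 (adjusted p up to 0.0609). Scg2 differed at day 7 by 1.63 ± 0.33 (adjusted p = 0.00782), and Pcsk1 at day 14 by 0.98 ± 0.20 (adjusted p = 0.018). With 1 library left out in turn, the day 14 calls held in 4 of 12 runs for Cpe (adjusted p up to 0.0987), 8 for Pcsk1 and 9 for Vgf. Mice of day 2 had 2 injections of tamoxifen and those of days 7 and 14 had 5, so the dose and the time cannot be told apart in these differences.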

How the results depend on the processing

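Over the 18 KO against WT fold changes of days 7 and 14, the sign turned in 2 of 233 alternatives, both for Pcsk1n at day 7, which ran from -0.44 to 0.55 with a library left out and was 0.02 without KO day 7 replicate 2 and 0.55 without WT day 7 replicate 1. Calls of Cpe, Scg2 and Vgf on both days and of Pcsk1 at day 14 held in 13 of 13 alternatives. Of the 9 genes, 5 were called at day 7, 3 to 5 when a library was left out (3 without KO day 7 replicate 1, with Pcsk1 and Scg5 lost) and 4 to 6 under the other settings, and 5 were called at day 14, 4 to 5 when a library was left out and 4 to 6 otherwise. Between WT days 7 and 2, 1 gene (Scg2) was called with DESeq2 and 1 without a filter, in place of 0. The count of 3 for day 7 minus day 2 ran from 2 to 4 when a library was left out, and that for day 14 minus day 2 from 0 to 3, with 0 without WT day 2 replicate 1 or KO day 14 replicate 1 and 1 without KO day 2 replicate 1, KO day 2 replicate 3 or KO day 14 replicate 2. The cause was not tested. Leaving out a library gave 0 to 0 between WT days 7 and 2 and in the remaining 4 comparisons. Over all genes, WT day 7 against day 2 had 118 called, 1511 with DESeq2, 1012 without a filter, 576 with only those groups, 288 without the 20 largest genes and 19 with the block. WT day 14 against day 2 had 343, 1383 with DESeq2, 1011 without a filter, 173 with the block and 28 with only those groups, and WT day 14 against day 7 had 17, 49 with DESeq2, 59 without a filter, 5 with the block and 4 with only those groups. Day 2 had 7, 13 with DESeq2, 16 without a filter and 3 with the block or only those groups. Day 7 minus day 2 had 934 and 1402 with DESeq2, day 14 minus day 2 had 223, 509 with DESeq2 and 433 without a filter, and day 14 minus day 7 had 0 and 2 with DESeq2 or without a filter. Same-numbered KO and WT libraries deviated from their group means with correlations of 0.05, 0.16 and 0.38 at day 2, -0.16, 0.21 and 0.08 at day 7 and 0.23, 0.18 and 0.16 at day 14, so the numbers met the criterion for pairs (every correlation over 0.1) at day 14 and not at days 2 and 7. With the replicate block, 4 of the 9 genes were called at day 7 (Pcsk1 lost, adjusted p = 0.0599), 4 at day 14 (Pcsk1n lost, adjusted p = 0.0571, and no other call of the 9 changed), 3 for day 7 minus day 2, 2 for day 14 minus day 2 (Cpe lost, adjusted p = 0.0522), and 0 in the other 5 comparisons. Adjusted p-values are from edgeR. Pcsk2, Pcsk1n, Vgf and Scg5 in KO rest on few counts. Each group had 3 mice, and p-values of the main model use a spread estimated over all 18 libraries, not within the compared groups alone.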
